A study of Mus musculus with 11 samples.

Results

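The let-7 and miR-98 family in mouse cortex was described across sham and stroke libraries by its 9 guide arms, mmu-let-7a-5p, mmu-let-7b-5p, mmu-let-7c-5p, mmu-let-7d-5p, mmu-let-7e-5p, mmu-let-7f-5p, mmu-let-7g-5p, mmu-let-7i-5p and mmu-miR-98-5p, named without the species prefix from here on. The members were chosen by name, not by a measured value, though with earlier results of these data known. They are 9 of the 1907 mature miRNA names in each count table. All mice were male Balb/cOlaHsd, labelled as 3 months old, and brain tissue was taken 3 days after surgery. In the mice behind the 5 pMCAO (permanent middle cerebral artery occlusion) libraries the left middle cerebral artery was closed for good by thermocoagulation, and the tissue is labelled as cortex around the infarct. In the mice behind the 6 sham libraries the same artery was exposed and lifted but not closed, and the tissue is labelled simply as cortex. Both groups underwent anaesthesia and transcardial perfusion, and the labels name no transgene and no drug. The names of the deposited tables mark both groups as vehicle, which the labels do not describe further. The question was which miRNAs differ in level between these groups.

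A let-7 precursor is a hairpin that Drosha and Dicer cleave into a short duplex. The guide arm is loaded into an Argonaute protein and pairs with messenger RNAs mainly through its seed, bases 2 to 8, while the passenger arm is mostly degraded. let-7 was described in C. elegans as a switch of developmental timing. In mammals its guide arms accumulate as neurons and other cells differentiate, LIN28 proteins block the processing of its precursors, and Lin28, Hmga2 and Ras messenger RNAs are well known targets.

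The mature sequences of the guide arms are shown because they define the family and show how few bases separate its members. They came from RefSeq (GRCm38.p6 table), all 9 had an entry, and capitals mark the seed.
let-7a-5p: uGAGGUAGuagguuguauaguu
let-7b-5p: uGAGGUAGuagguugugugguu
let-7c-5p: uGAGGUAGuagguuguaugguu
let-7d-5p: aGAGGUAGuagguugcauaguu
let-7e-5p: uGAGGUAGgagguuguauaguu
let-7f-5p: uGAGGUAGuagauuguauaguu
let-7g-5p: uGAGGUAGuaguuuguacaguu
let-7i-5p: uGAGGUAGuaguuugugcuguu
miR-98-5p: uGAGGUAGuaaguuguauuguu
Every guide arm was 22 bases long and held the seed GAGGUAG. Positions below are counted from 1 at the 5′ end, with the base of let-7a-5p first. let-7c-5p (A19G), let-7e-5p (U9G) and let-7f-5p (G12A) each differed from let-7a-5p at 1 position. let-7b-5p (A17G and A19G), let-7d-5p (U1A and U16C), let-7g-5p (G12U and U18C) and miR-98-5p (G11A and A19U) differed at 2 positions. let-7i-5p was the most distant from let-7a-5p, with G12U, A17G, U18C and A19U. Of the 36 pairs of guide arms, 4 pairs differed at 1 position and 10 pairs at 2 positions, so the division of reads among such near-identical members is uncertain. The mismatch setting of the mapping is not given in the sources used here, and an exchange of reads between members was not tested.

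Among the 1623 names with a reference sequence, 11 carried the seed GAGGUAG. The other two, let-7k and miR-1961, were almost not seen, with at most 3 counts for let-7k and at most 1 count for miR-1961 in any library. let-7j, which carries the seed GAGGUAU, reached at most 8 counts. Among the names with a reference sequence, nearly all counts of this seed were therefore those of the 9 members. The remaining names in the count tables could not be checked for the seed.

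The family came from 12 hairpins on 7 chromosomes (GRCm38). Mirlet7d (chr13:48536012-48536114), Mirlet7f-1 (chr13:48537829-48537917) and Mirlet7a-1 (chr13:48538179-48538272) lay in exons of the lincRNA 6720427I07Rik on the minus strand, with 1714 and 261 bases between neighbours. Mirlet7c-2 (chr15:85706603-85706697) and Mirlet7b (chr15:85707319-85707403) lay in exons of the noncoding transcript Lncppara, 621 bases apart. Mirlet7f-2 (chrX:151912346-151912428) and Mir98 (chrX:151913214-151913321) lay in introns of Huwe1, which encodes a ubiquitin ligase, 785 bases apart. Mirlet7g (chr9:106178840-106178927) was intronic in Wdr82, and Mirlet7i (chr10:122985640-122985724) overlapped an exon of the transcribed pseudogene D630033A02Rik. The remaining hairpins had neighbours from other families. Mirlet7c-1 (chr16:77599657-77599750, an intron of Mir99ahg) lay 656 bases from Mir99a, Mirlet7e (chr17:17830352-17830444, an intron of Spaca6) lay 367 bases from Mir125a, and Mirlet7a-2 (chr9:41536716-41536811, an intron of Gm49317) lay 5211 bases from Mir100 and 45114 bases from Mir125b-1. The guide arms of let-7a, let-7c and let-7f can each come from more than 1 hairpin, and their counts cannot be divided between those hairpins.

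Libraries held 1429037 to 2319810 miRNA counts in sham and 744877 to 1411620 in pMCAO, so the depths of the groups did not overlap and sham was the deeper. Levels are given as CPM (a miRNA's share of the library's counts, scaled up by a fixed factor) after TMM scaling, which corrects library totals so that most miRNAs have no net difference. A list of neuron and cortex markers (miR-124-3p, miR-9-5p, miR-128-3p, miR-138-5p and miR-218-5p) together ran from 324448 to 412319 CPM in sham and from 277899 to 329645 CPM in pMCAO, with edgeR adjusted p-values from 0.0523 to 0.703. Their log2 fold changes were -0.39 for miR-128-3p, -0.32 for miR-124-3p, -0.12 for miR-218-5p and -0.10 for miR-9-5p. miR-138-5p went the other way, with 0.21. Leukocyte markers summed to 2422 to 3718 CPM in sham and 3148 to 6363 CPM in pMCAO, with 3 of 4 called higher. The uncalled leukocyte marker, miR-150-5p, had a mean of 2735 CPM in sham and 2300 CPM in pMCAO (log2 fold change -0.25). Of the oligodendrocyte markers 1 of 3 was called lower, beside 2.71% of all miRNAs tested, with summed levels of 4287 to 5244 CPM in sham and 2530 to 4955 CPM in pMCAO. The called marker was miR-338-3p (log2 fold change -0.54), and the uncalled were miR-219a-5p (-0.20) and miR-219a-2-3p (-0.15). Endothelium markers ran from 9192 to 13016 CPM in sham and from 9518 to 13653 CPM in pMCAO, liver and muscle markers from 398 to 655 CPM and from 320.4 to 487 CPM, and no marker was at 0 in every library. Sham library 1 stood apart in erythrocyte markers, with 5375 CPM against 49.2 to 272 CPM in the other sham libraries and 640 to 4735 CPM in pMCAO. In bulk tissue, fewer cells of a type and less RNA per cell cannot be told apart, and the part of these cell types in the values of the family was not tested.

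The family made up a sizeable share of the miRNA counts in both groups. The 9 guide arms together held 4.30% of a library's counts in the lowest sham library, 5.37% at the sham median and 5.91% in the highest sham library. In pMCAO libraries 1 to 5 they held 7.06%, 5.75%, 6.07%, 6.49% and 6.61%. The mean share was 5.24% ± 0.55 in sham (SD, n = 6) and 6.40% ± 0.50 in pMCAO (SD, n = 5). Of the 5 pMCAO libraries, 4 lay above the highest sham library and pMCAO library 2 lay inside the sham range, so the groups overlapped. After TMM scaling the groups lay closer, with a summed level of 55584 ± 7264 CPM in sham and 60048 ± 6278 CPM in pMCAO. The mean TMM factor, by which a library's total is multiplied before scaling, was 0.948 in sham and 1.07 in pMCAO. Summed into 1 entry and fitted with all other miRNAs, the family had a log2 fold change of 0.13 with an SE of 0.11.

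**Figure D1:**
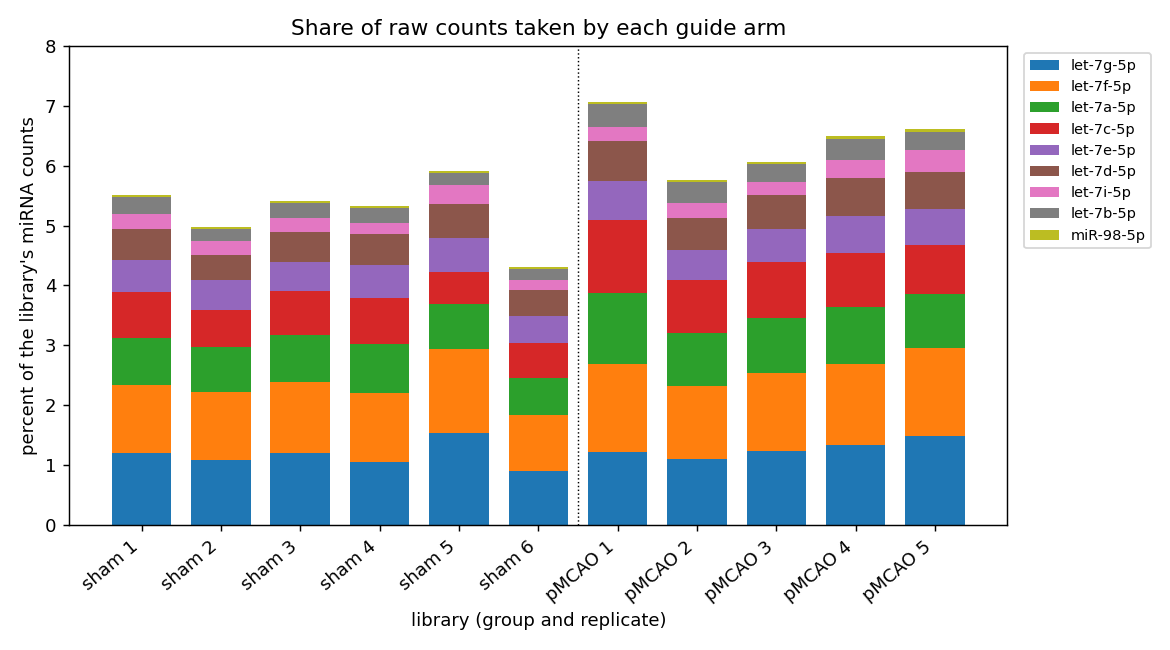
Stacked bars give the percent of each library's raw miRNA counts taken by each of the 9 guide arms (vertical axis, percent) for the 6 sham and 5 pMCAO libraries. The full bars run from 4.30% in sham library 6 to 7.06% in pMCAO library 1, and the bar of pMCAO library 2 (5.75%) is lower than that of sham library 5 (5.91%).

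By mean level, the guide arms fell into 4 tiers of abundance in sham cortex. All 9 have the same length, so CPM values needed no correction for it. The order below is that of the counted reads, since capture in the library and the division of reads among near-identical members were not tested. let-7g-5p and let-7f-5p shared the top tier with 12333 ± 2443 and 12333 ± 1882 CPM (SD, n = 6), and ranked 14 and 15 among all miRNAs. let-7a-5p (7949 ± 1047 CPM), let-7c-5p (7089 ± 1204), let-7e-5p (5441 ± 586) and let-7d-5p (5226 ± 571) formed the next tier. The third held let-7i-5p (2462 ± 620 CPM) and let-7b-5p (2429 ± 477), and miR-98-5p was alone in the fourth with 322 ± 63.9 CPM and rank 168. The ranges of neighbours in this order did not overlap between let-7f-5p and let-7a-5p, whose mean levels differed 1.55-fold, between let-7d-5p and let-7i-5p (2.12-fold), or between let-7b-5p and miR-98-5p (7.56-fold). The top tier as a whole did overlap the next. let-7g-5p went down to 8625 CPM in sham library 6, and let-7a-5p up to 8795 CPM in sham library 3. Within a tier the ranges of neighbours overlapped. Still, let-7a-5p was above let-7c-5p in 6 of 6 sham libraries, and let-7c-5p above let-7e-5p in 5 of 6. let-7g-5p was above let-7f-5p in 3 of 6 sham and 1 of 5 pMCAO libraries, let-7e-5p above let-7d-5p in 4 of 6 and 0 of 5, and let-7i-5p above let-7b-5p in 2 of 6 and 1 of 5. let-7a-5p was above let-7c-5p in 3 of 5 pMCAO libraries, and let-7c-5p above let-7e-5p in 5 of 5. These differences in order between the groups were not tested.

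**Figure D2:**
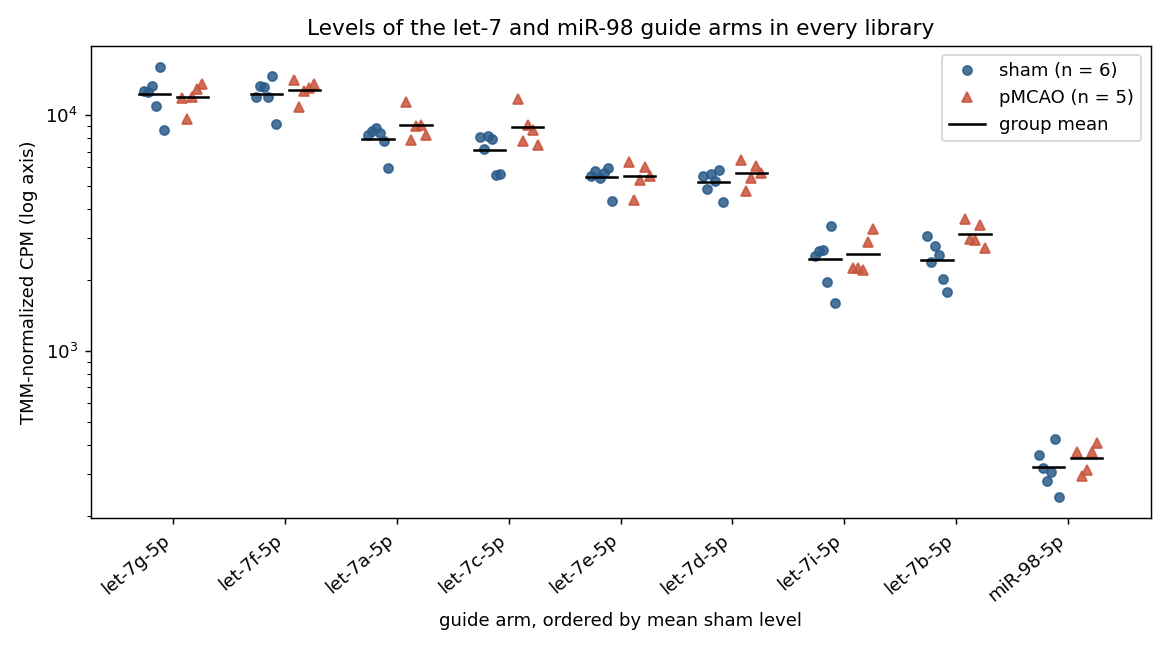
Each point is the TMM-normalized level (CPM, log axis) of 1 guide arm in 1 library, for 6 sham (circles) and 5 pMCAO (triangles) libraries, with a line at the group mean. The 4 tiers are those of the sham means. In sham the upper tiers overlap, with let-7a-5p up to 8795 CPM and let-7g-5p down to 8625 CPM. In pMCAO they overlap as well, with let-7c-5p up to 11707 CPM and let-7g-5p down to 9643 CPM. For each guide arm the points of the groups overlap.

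No guide arm was called between pMCAO and sham. edgeR's quasi-likelihood test, run on the 479 miRNAs with enough counts and adjusted by Benjamini-Hochberg over all of them, called 34 (7.1%), 21 higher (4.38%) and 13 lower (2.71%), and 0 of the 9 guide arms. DESeq2 also called 0 of 9. At an unadjusted p under 0.05 both tools listed 2 of the 9 (22.2%), against 24.4% of all miRNAs tested with edgeR and 23.2% with DESeq2, so the share of guide arms was near that of miRNAs in general. Adjusted p-values of the 9 ran from 0.132 to 0.986. By value, 8 guide arms were higher in pMCAO and 1 was lower, beside 241 higher and 238 lower among all miRNAs tested. Their median log2 fold change was 0.12, against 0.00147 over all miRNAs tested. The median of the guide arms was 0.06 without sham library 6, 0.18 without sham library 5 and 0.21 without pMCAO library 2. In every guide arm the libraries of the groups overlapped in TMM CPM. Groups that did not overlap were seen for 7.52% of all miRNAs tested, so 0 of 9 was near that share. For comparison, miR-21a-5p, the miRNA the study followed, rose from 2353 ± 363 to 10210 ± 4885 CPM (log2 fold change 2.12, SE 0.25, edgeR adjusted p = 0.000395).

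let-7b-5p, known from neural stem cells as a brake on proliferation, had the largest difference. Its sham libraries ran from 1779 CPM over a median of 2459 CPM to 3069 CPM, and pMCAO libraries 1 to 5 held 3615, 2973, 2963, 3424 and 2724 CPM. All 5 pMCAO libraries were above the sham median and 2 were above the highest sham library. The mean was 2429 ± 477 CPM in sham and 3140 ± 367 CPM in pMCAO, with a log2 fold change of 0.37 (SE 0.14, 95% interval 0.07 to 0.67, edgeR adjusted p = 0.132). An exact permutation test of the difference in log2(CPM + 1), two-sided and 1 of 9 such tests, gave an unadjusted p = 0.0281, where the possible arrangements of the libraries allow no p below 0.00216. This p rose above 0.05 when 1 library was left out in 8 of 11 cases: to 0.0556 without sham library 2, 4, 5 or 6, to 0.0524 without pMCAO library 2 or 3, to 0.0714 without pMCAO library 4 and to 0.0762 without pMCAO library 1, each again by the exact permutation test.

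let-7c-5p, which is processed from hairpins beside Mir99a and Mirlet7b, had the next largest difference. Its sham libraries ran from 5596 CPM over a median of 7560 CPM to 8148 CPM, and pMCAO libraries 1 to 5 held 11707, 7736, 9049, 8618 and 7445 CPM. pMCAO libraries 1, 3 and 4 stood above the sham range, and pMCAO library 5 was below the sham median. The mean was 7089 ± 1204 CPM in sham and 8911 ± 1692 CPM in pMCAO, with a log2 fold change of 0.33 (SE 0.15, 95% interval 0.02 to 0.64, edgeR adjusted p = 0.178). The exact permutation test, two-sided and unadjusted, gave p = 0.0714, and p = 0.0429 without pMCAO library 5. Without pMCAO library 1, the highest, the log2 fold change was 0.20.

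let-7a-5p, the reference sequence of the family, followed. Its sham libraries ran from 5943 CPM over a median of 8327 CPM to 8795 CPM, and pMCAO libraries 1 to 5 held 11356, 7810, 8980, 9091 and 8204 CPM. pMCAO libraries 1, 3 and 4 were again above the sham range, and libraries 2 and 5 were below the sham median. The log2 fold change was 0.19 (SE 0.12, 95% interval -0.07 to 0.46, edgeR adjusted p = 0.406). It fell to 0.09 without pMCAO library 1 and to 0.13 without sham library 6.

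let-7d-5p and miR-98-5p had smaller differences of the same sign. let-7d-5p ran from 4284 CPM over a median of 5390 CPM to 5832 CPM in sham, and held 6444, 4787, 5435, 6057 and 5692 CPM in pMCAO libraries 1 to 5 (log2 fold change 0.12, 95% interval -0.11 to 0.36, edgeR adjusted p = 0.595). For miR-98-5p the sham libraries ran from 240.0 CPM over a median of 313 CPM to 422 CPM, and pMCAO libraries 1 to 5 held 373, 296, 313, 371 and 407 CPM (log2 fold change 0.13, 95% interval -0.18 to 0.44, edgeR adjusted p = 0.666). For let-7d-5p 2 of 5 pMCAO libraries exceeded the highest sham library, and for miR-98-5p none did. Single libraries set much of both values. The log2 fold change of let-7d-5p was 0.07 without sham library 6, 0.06 without pMCAO library 1 and 0.21 without pMCAO library 2. That of miR-98-5p was 0.06 without sham library 6, 0.09 without pMCAO library 5, 0.22 without pMCAO library 2 and 0.23 without sham library 5.

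For let-7e-5p, let-7f-5p, let-7g-5p and let-7i-5p the sign itself was not settled. let-7e-5p ran from 4314 CPM over a median of 5603 CPM to 5950 CPM in sham and held 6336, 4363, 5318, 6005 and 5542 CPM in pMCAO (log2 fold change 0.02, 95% interval -0.23 to 0.27). let-7f-5p ran from 9136 CPM over a median of 12525 CPM to 14699 CPM in sham and held 14147, 10825, 12664, 13044 and 13481 CPM in pMCAO (log2 fold change 0.06, 95% interval -0.20 to 0.31). For both guide arms the means of the groups differed by less than 1 SD of either group.

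let-7g-5p ran from 8625 CPM over a median of 12595 CPM to 15929 CPM in sham and held 11778, 9643, 11948, 12845 and 13562 CPM in pMCAO (log2 fold change -0.04, 95% interval -0.35 to 0.26). let-7i-5p ran from 1592 CPM over a median of 2586 CPM to 3376 CPM in sham and held 2236, 2243, 2208, 2882 and 3301 CPM in pMCAO (log2 fold change 0.06, 95% interval -0.32 to 0.45). All pMCAO values of both lay inside the sham range. Adjusted p-values of edgeR for these 4 guide arms ran from 0.850 to 0.986. Leaving out 1 library turned the sign of each of them: let-7e-5p to -0.04 without sham library 6 and to -0.05 without pMCAO library 1, let-7f-5p to -0.01 without sham library 6, let-7g-5p to 0.05 without sham library 5 or pMCAO library 2, and let-7i-5p to -0.03 without sham library 6 or pMCAO library 5.

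The call for 3 guide arms depended on how the libraries were scaled. With library totals alone in place of TMM, edgeR called let-7b-5p (log2 fold change 0.55, adjusted p = 0.0209), let-7c-5p (0.50, adjusted p = 0.0284) and let-7a-5p (0.37, adjusted p = 0.0424) higher in pMCAO, and let-7g-5p turned to 0.13. The background of this setting was 9.19% of all miRNAs tested called, 43 higher (8.98%) and 1 lower, against 21 higher and 13 lower with TMM, 23 higher and 4 lower with upper-quartile factors and 22 higher and 8 lower with TMM factors computed without the guide arms. Library totals alone also shifted the median over the whole set of miRNAs tested, from 0.00147 to 0.18 on the log2 scale. Relative to that median, let-7b-5p was at 0.37, let-7c-5p at 0.33, let-7a-5p at 0.19 and let-7g-5p at -0.04, the same values to 2 decimals as with TMM. A change of library factors shifts all miRNAs by nearly the same amount. The match therefore follows from the arithmetic and does not bear on the choice of scaling. These data hold no added reference RNA, and which scaling is closer to the RNA content of the tissue was not tested.

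**Figure D3:**
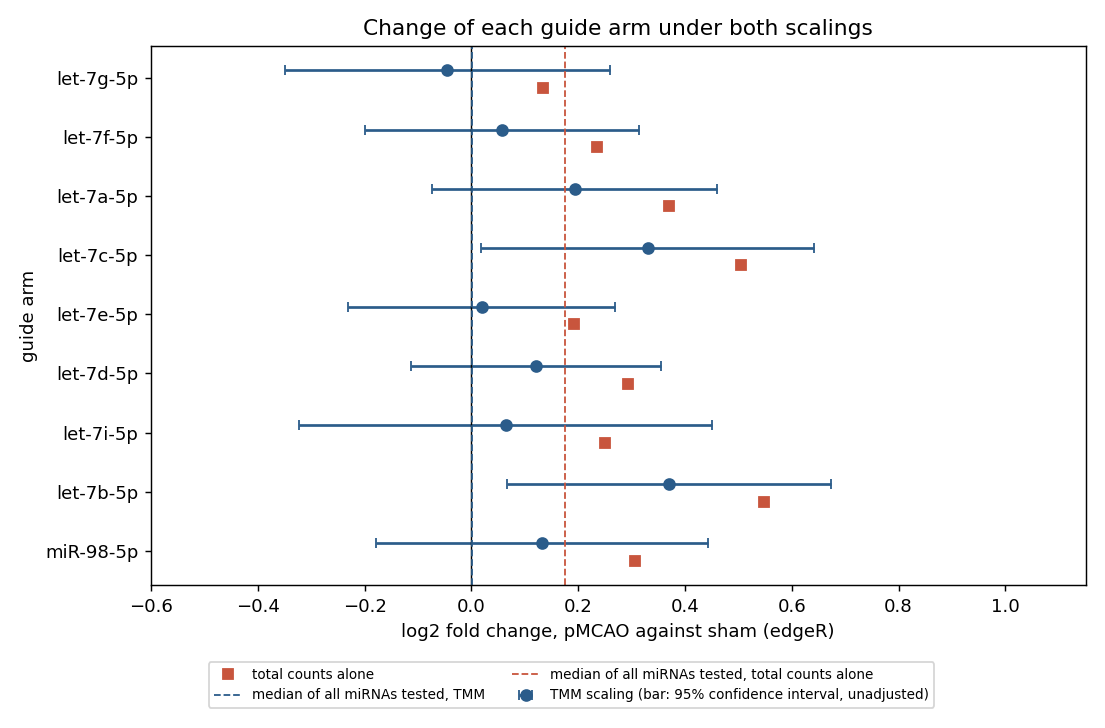
The horizontal axis gives the log2 fold change of pMCAO against sham from edgeR, for each guide arm, with TMM scaling (circles, bars are unadjusted 95% confidence intervals) and with library totals alone (squares). Dashed lines mark the median of all miRNAs tested, 0.00147 with TMM and 0.18 with totals alone, and the bars of let-7b-5p and let-7c-5p alone do not reach 0.

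The make-up of the family does not depend on the scaling of the libraries. let-7c-5p took 12.8% ± 1.9 of the family's counts in sham and 14.8% ± 1.8 in pMCAO, let-7b-5p 4.38% ± 0.67 and 5.24% ± 0.51, and let-7a-5p 14.3% ± 0.95 and 15.1% ± 1.1 (SD, n = 6 and 5). let-7g-5p went the other way by value, from 22.1% ± 2.1 to 19.9% ± 1.9, as did let-7e-5p (9.83% ± 0.55 and 9.16% ± 0.38) and let-7f-5p (22.2% ± 1.2 and 21.4% ± 0.61). let-7d-5p (9.45% ± 0.61 and 9.46% ± 0.17), let-7i-5p (4.38% ± 0.67 and 4.31% ± 0.84) and miR-98-5p (0.578% ± 0.075 and 0.587% ± 0.055) had nearly equal means. The groups overlapped for each of these shares. Among the 36 ratios of one guide arm to another, 0 separated the groups, and the mean log2 ratio differed between the groups by at most 0.42.

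Single libraries moved most guide arms together. Sham library 6 was below the sham mean in 9 of 9 guide arms, by log2 differences from -0.28 for let-7d-5p to -0.59 for let-7i-5p. pMCAO library 2 was below the pMCAO mean in 9 of 9. Sham library 5 split the family, with let-7b-5p and let-7c-5p at -0.24 and -0.32 and let-7i-5p, miR-98-5p and let-7g-5p at 0.50, 0.42 and 0.39 relative to the sham mean. pMCAO library 1 had the highest level of all pMCAO libraries in let-7a-5p, let-7b-5p, let-7c-5p, let-7d-5p, let-7e-5p and let-7f-5p, at 0.74 above the sham mean for let-7c-5p, but had let-7i-5p at -0.10. Members varied in how closely they followed the summed family over the 11 libraries. The root mean square difference in log2 CPM, each centred on its own mean, was 0.0613 for let-7f-5p and 0.0657 for let-7d-5p, and reached 0.223 for let-7b-5p and 0.225 for let-7i-5p and let-7c-5p.

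**Figure D4:**
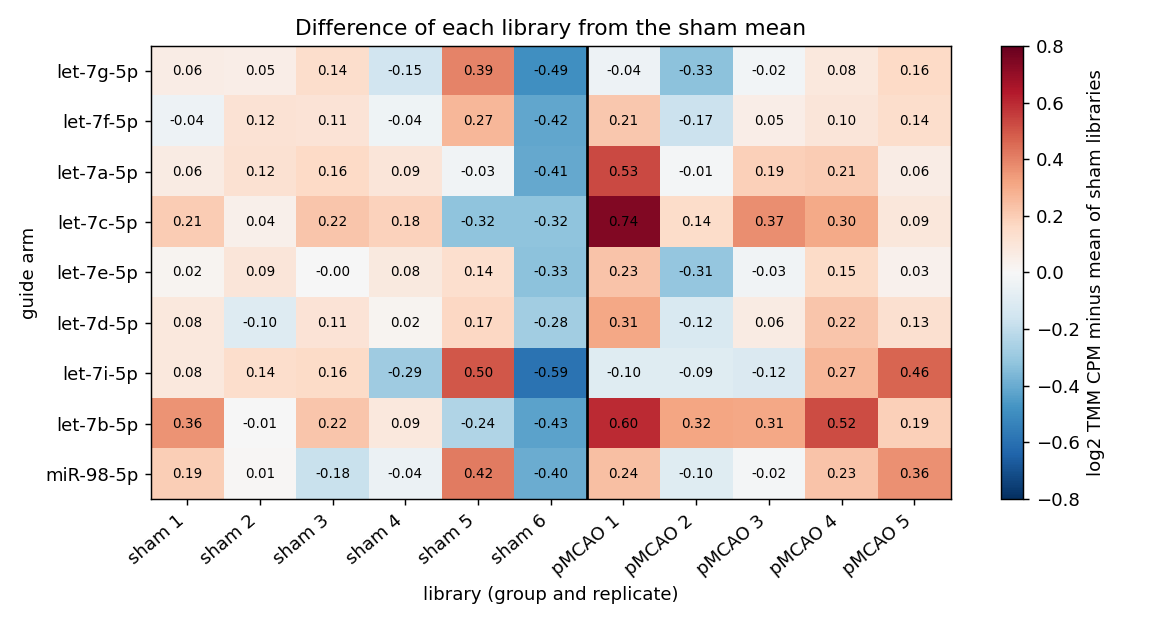
Each cell gives the log2 TMM CPM of 1 guide arm (row) in 1 library (column) minus the mean of the 6 sham libraries, in red for higher and blue for lower. Sham library 6 is blue in 9 of 9 guide arms, and pMCAO library 1 is red in 7 of 9, up to 0.74 for let-7c-5p.

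By the same measure, the 5 miRNAs outside the family whose profile over the 11 libraries lay closest to the summed family were miR-384-3p (0.12), miR-153-3p (0.17), miR-203-3p (0.18), miR-154-5p (0.18) and miR-872-5p (0.18). The median over the 242 candidates with a mean of at least 100 CPM was 0.31. All points share the same 11 libraries and their scaling. Their edgeR adjusted p-values ran from 0.186 to 0.992.

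The passenger arms stood far below the guide arms. From the mean of log2 ratios in sham, let-7a-5p counts were 100.1-fold those of its passenger arms, let-7f-5p 80.8-fold, let-7e-5p 80.5-fold, let-7g-5p 80.2-fold and let-7i-5p 58.7-fold. The ratio was smaller for let-7c-5p (30.3-fold), let-7b-5p (17.7-fold) and miR-98-5p (7.82-fold), and let-7d-5p lay between the last named with a mean log2 ratio of 3.81. In pMCAO the ratios were 117.5-fold for let-7a, 22.4-fold for let-7b, 37.7-fold for let-7c, 12.4-fold for let-7d (a mean log2 ratio of 3.63) and 7.85-fold for miR-98, and the groups overlapped for each hairpin family. Together the passenger arms made up 2.31% ± 0.55 of all guide and passenger counts in sham and 2.23% ± 0.39 in pMCAO.

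Of 12 passenger arms 11 had enough counts to be tested, and let-7a-2-3p had at most 8 counts in a library. edgeR and DESeq2 called 0 of 11, beside 7.1% of all miRNAs tested with edgeR and 45 of 479 with DESeq2, so 0 was near those shares. At an unadjusted p under 0.05 either tool listed 0 of 11, against 24.4% of all miRNAs with edgeR and 23.2% with DESeq2. Whether the passenger arms differ from other miRNAs in this was not tested. By value 7 were higher and 4 lower in pMCAO, with a median log2 fold change of 0.05. let-7d-3p had the largest difference, from 377 ± 64.7 CPM in sham to 461 ± 72.7 CPM in pMCAO (log2 fold change 0.29, SE 0.15, edgeR adjusted p = 0.241). let-7g-3p had the lowest value, from 153 ± 25.1 to 133 ± 12.1 CPM (log2 fold change -0.20, SE 0.14, edgeR adjusted p = 0.427). Sham library 5 had the lowest sham level of let-7a-1-3p (61.9 CPM), let-7b-3p (90.3 CPM), let-7c-2-3p (153 CPM) and let-7d-3p (253 CPM). The same held for let-7f-2-3p (83.0 CPM), let-7i-3p (33.5 CPM) and miR-98-3p (26.2 CPM), but not for the other passenger arms. The guide arms of this library went both ways. While let-7b-5p and let-7c-5p were low, let-7d-5p (5832 CPM), let-7f-5p (14699 CPM), let-7i-5p (3376 CPM) and miR-98-5p (422 CPM) were at their highest sham level.

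A pair of passenger arms cannot be told apart by sequence. RefSeq gives the same 22 bases for both, shown here because their counts bear on how reads were assigned.
let-7a-1-3p: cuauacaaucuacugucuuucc
let-7c-2-3p: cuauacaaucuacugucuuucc
Even so, let-7c-2-3p had 2.47 to 3.40 times the counts of let-7a-1-3p in every library, with 189 to 467 counts against 58 to 183. The values of both names are uncertain, and the ratios for let-7a and let-7c with them. With both families joined, guide arms had 48.1-fold the counts of passenger arms in sham and 57.5-fold in pMCAO.

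Mirlet7a-2, Mirlet7c-1 and Mirlet7e lie beside hairpins of the miR-99/100 and miR-125 families, which are counted here as cluster partners. miR-125 is the mammalian relative of lin-4, a timing miRNA of C. elegans that acts before let-7, and Mtor messenger RNA is a known target of miR-99 and miR-100. Of 11 partner arms 10 were tested, and 0 were called by edgeR or DESeq2, beside 7.1% of all miRNAs tested with edgeR and 45 of 479 with DESeq2. At an unadjusted p under 0.05 edgeR listed 2 of 10 and DESeq2 1 of 10. Over all miRNAs tested the shares at this unadjusted p were 24.4% with edgeR and 23.2% with DESeq2. Counts out of 10 are too small to set the partners apart. By value 3 were higher and 7 lower in pMCAO, with a median log2 fold change of -0.14, beside 0.12 for the guide arms.

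miR-125b-5p, at 42742 ± 3634 CPM the most abundant partner, ran from 38451 CPM over a median of 42644 CPM to 49314 CPM in sham. In pMCAO libraries 1 to 5 it held 26157, 29672, 38569, 42927 and 35575 CPM, and libraries 1, 2 and 5 were below the lowest sham library (log2 fold change -0.31, SE 0.12, edgeR adjusted p = 0.148). miR-99b-3p had a mean of 44.4 ± 6.3 CPM in sham and 57.9 ± 10.6 CPM in pMCAO (log2 fold change 0.37, SE 0.16, edgeR adjusted p = 0.179). miR-99a-5p (log2 fold change -0.15, SE 0.33), which is processed beside let-7c-1, rested on libraries that stood apart. It had 1287 CPM in pMCAO library 5 against 5123 to 7205 CPM in the other pMCAO libraries. miR-99b-5p had 516 CPM in sham library 5 against 2222 to 2718 CPM in the other sham libraries (log2 fold change -0.11, SE 0.29). The wide intervals of these 2 partners limit any comparison with their let-7 neighbours, which was not tested.

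**Figure D5:**
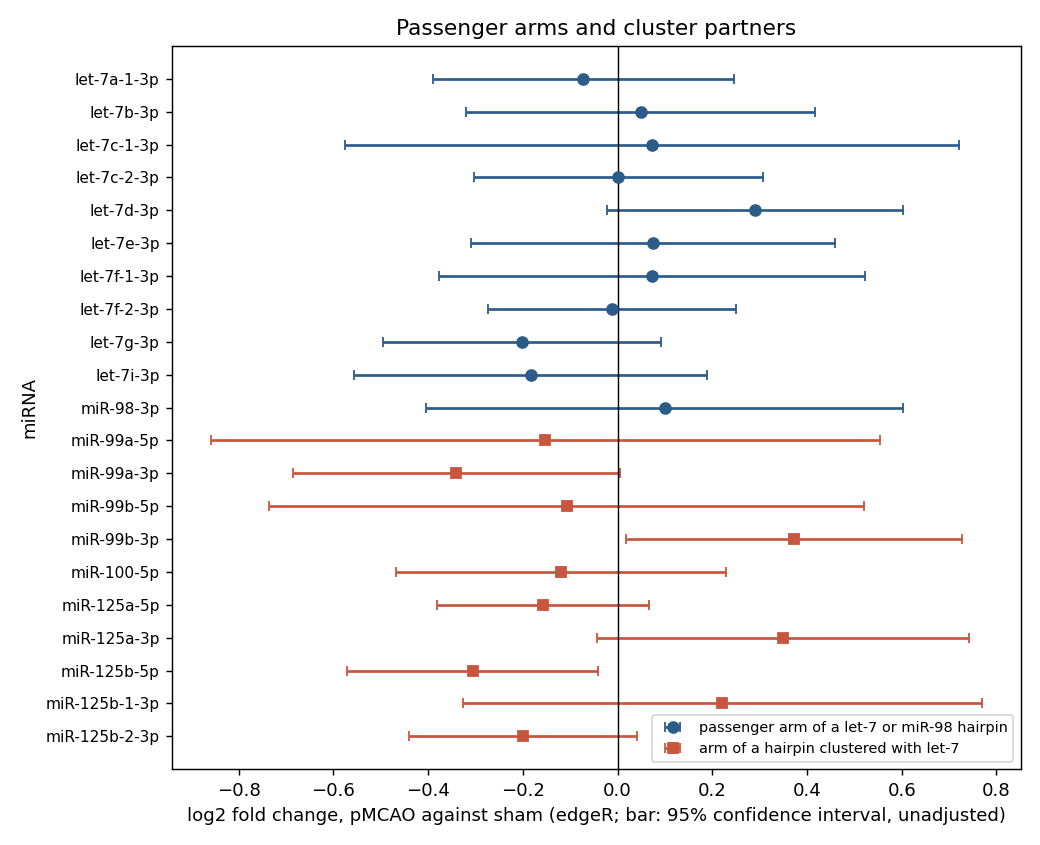
The horizontal axis gives the log2 fold change of pMCAO against sham from edgeR with unadjusted 95% confidence intervals for 11 passenger arms of the family (circles) and 10 cluster partners (squares). Among these bars, those of miR-125b-5p and miR-99b-3p alone do not reach 0.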

How the data were processed

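Small RNA was sequenced of mouse cortex in 6 sham and 5 pMCAO libraries. The authors deposited raw counts per mature miRNA name, made with the Torrent Suite, FastQC, a length filter on reads, Bowtie on mm10 and HTSeq on miRBase annotation. Mapping and counting settings, including the treatment of reads that match several names, are not given in the sources used here. Groups came from the sample labels. Counts were tested with edgeR 4.0.16 (R 4.3.3; glmQLFit and glmQLFTest, TMM, filterByExpr with a minimum count of 10 and a total of 15, Benjamini-Hochberg over 479 miRNAs, threshold 0.05), without covariates. The SE was taken as the log2 fold change over the root of edgeR's F statistic. Levels were also compared by exact permutation tests on log2(CPM + 1), and guide to passenger ratios took counts plus 0.5. Scripts were tested on simulated data.

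Library totals ran from 744877 to 2319810, and guide arms had 250 to 26528 counts in a library. A floor of 3 counts equalled at most 4.03 CPM. Reads carry no molecular identifiers. The labels number the libraries as replicates without naming animals, so p-values measure the spread between these samples, which may be technical. Within groups, no pair of libraries agreed within sampling noise (lowest chi-square per degree of freedom 18.0).

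The members and lists were chosen with earlier results of these data known. Named were the 9 guide arms, their 12 passenger arms, let-7j and let-7k, names with the same seed, 11 cluster partners, the 5 closest profiles outside the family and miR-21a-5p. Sequences came from a RefSeq table (GRCm38.p6) and hosts from GENCODE vM21. Alternatives were DESeq2 1.42.0, edgeR's robust fit, other factors and filters, guide arms summed, thinning to the smallest library, the replicate number as a block and leaving out each library. Exact tests with total counts alone, and left-out libraries for the guide to passenger ratio, were added after seeing the data.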

Additional observations from a re-analysis of the deposited data

Results flagged for a closer look

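Among 100 group-by-measure sets of values of the family and its cluster partners, 11 had a library whose gap to its nearest neighbour was large for the range of its group. The criterion picks about 1 set in 20 by chance, or 5 of 100, and the sets share libraries.

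On the log2(CPM + 1) scale, sham library 6 was low for let-7a-5p at 12.54, with the nearest sham library at 12.92, and for let-7e-5p at 12.08, with the nearest at 12.40. The same library had the lowest log2 ratio of let-7e guide to passenger counts, 5.51, with the nearest sham library at 6.30.

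Sham library 5 was low for passenger arms, at 6.51 for let-7b-3p (nearest 7.11), 7.99 for let-7d-3p (nearest 8.56) and 6.39 for let-7f-2-3p (nearest 6.72). It was also low among cluster partners, at 6.69 for miR-99a-3p (nearest 7.30) and 9.02 for miR-99b-5p (nearest 11.12). In the same library let-7c-5p took 9.09% of the family's counts, where the nearest sham library had 12.5%, and the log2 ratio of let-7d guide to passenger counts was 4.53, above the nearest value of 3.83.

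pMCAO library 5 was low for miR-99a-5p at 10.33, with the nearest pMCAO library at 12.32.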

How the results depend on the processing

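No guide arm, passenger arm or cluster partner was called under DESeq2, edgeR's robust fit, RLE or upper-quartile factors, TMM factors without the guide arms, either other filter, thinning, the block or any left-out library. Library totals alone called 3 guide arms and 43 miRNAs higher and 1 lower, with a median log2 fold change of 0.29 for the guide arms and 0.18 for all miRNAs. let-7g-5p then turned to 0.13, and on log2(CPM + 1) to 0.15, and 4 levels besides let-7b-5p passed the exact permutation test (let-7a-5p 0.37, let-7c-5p 0.50, let-7d-5p 0.30, let-7f-5p 0.24). Without a filter let-7e-5p turned to -0.013. The 13 miRNAs called lower became 4 with upper-quartile factors and 8 with TMM without guide arms or with no filter. Requiring 10 counts in every library left 18 called and 3 lower, and thinning 19 and 3; the causes were not tested. Whether replicate numbers pair the samples cannot be decided from so few pairs (same-number correlations -0.077 to 0.228, 3 of 5 over 0.1, 1 of 5 pMCAO libraries closest to its own number). With the number as a block 22 miRNAs were called, 3 lower, 0 guide arms were called, and let-7e-5p (-0.050), let-7f-5p (-0.017) and let-7i-5p (-0.034) turned negative. No pMCAO library shares the number of sham library 6, so that library adds nothing to the group difference in this fit. The same guide arms turned negative when sham library 6 was left out. With the block the median of the guide arms was 0.064, with let-7a-5p at 0.11, let-7d-5p at 0.065 and miR-98-5p at 0.064.

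Leaving out each library gave 16 to 36 called miRNAs, 13 to 27 higher and 2 to 13 lower. The called fell to 19 without sham library 2 or 4, 16 without sham 3, 20 without sham 6, 17 without pMCAO 2 and 21 without pMCAO 5. Log2 fold changes ran from 0.091 to 0.27 for let-7a-5p, 0.30 to 0.46 for let-7b-5p, 0.20 to 0.41 for let-7c-5p, 0.063 to 0.21 for let-7d-5p, 0.065 to 0.23 for miR-98-5p, -0.045 to 0.12 for let-7e-5p, -0.012 to 0.14 for let-7f-5p, -0.13 to 0.053 for let-7g-5p and -0.031 to 0.18 for let-7i-5p, and their median from 0.065 to 0.21. On log2(CPM + 1), differences ran from 0.30 to 0.46 for let-7b-5p, 0.23 to 0.39 for let-7c-5p, -0.050 to 0.097 for let-7e-5p, -0.017 to 0.13 for let-7f-5p, -0.13 to 0.049 for let-7g-5p and -0.033 to 0.18 for let-7i-5p. Depth limited the rarest arm of the family, let-7a-2-3p, with 1 to 8 counts in a library.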
